A study of Mus musculus with 12 samples.

Results

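The genes described here encode the sensors, the adaptor and the inflammatory caspases of the mouse inflammasomes. They were taken by name from the table of all genes, 10 genes of 54532: the sensors Nlrp3, Nlrc4, Naip2, Naip5, Naip6, Aim2 and Mefv, the adaptor Pycard, and the caspases Casp1 and Casp4. All 10 had enough counts to be tested, and the fewest counts of any of them in a sample was 14. The samples were lungs of mice with acute lung injury (ALI), an inflammation of the lung with leakage of the barrier between air and blood, and lungs of control mice, with 6 samples in each group. The stated aim concerns ALI caused by drowning in seawater. The labels name the tissue and the group, but no strain, age, dose, time after injury or treatment of the controls. They also do not say whether each sample came from a separate mouse, so the p-values rest only on how far these samples varied, and that variation may be technical.

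Inflammasomes are protein complexes that assemble in the cytosol when a sensor meets a microbial product or a sign of cell damage. Most sensors recruit caspase-1 through the adaptor ASC, and active caspase-1 cuts the precursors of IL-1β and IL-18 and the pore-forming protein gasdermin D, which leads to a lytic cell death called pyroptosis. Mouse caspase-11, the product of Casp4, binds bacterial lipopolysaccharide directly and also cuts gasdermin D. In the lung these proteins are best known from macrophages and other myeloid cells, where the amount of sensor RNA is often raised by a priming signal before any complex forms. RNA levels do not show whether a complex has formed.

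Sequences at the start of 5 of these genes are given as description. Naip2 and Naip5 are close relatives that lie beside each other. Casp4 and Pycard were among the members with the smaller differences, and Nlrp3 was among those with the larger ones. Whether these sequences relate to the values below was not tested. Sequences and starts are from RefSeq for GRCm38.p6, where all 10 members were found. The 3 windows for Casp4 (chr9:5308599-5308848, plus strand), Nlrp3 (chr11:59542436-59542685, plus strand, the second of its annotated starts) and Pycard (chr7:127993868-127994117, minus strand) hold the 250 bases before an annotated start, 5′ to 3′. Capitals mark matches to searched motifs.
Casp4: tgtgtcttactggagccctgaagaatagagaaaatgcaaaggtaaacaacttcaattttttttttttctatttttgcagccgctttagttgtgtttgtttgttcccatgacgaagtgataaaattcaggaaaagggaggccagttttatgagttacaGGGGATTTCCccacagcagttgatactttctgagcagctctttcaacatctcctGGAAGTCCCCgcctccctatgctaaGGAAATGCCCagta
Nlrp3: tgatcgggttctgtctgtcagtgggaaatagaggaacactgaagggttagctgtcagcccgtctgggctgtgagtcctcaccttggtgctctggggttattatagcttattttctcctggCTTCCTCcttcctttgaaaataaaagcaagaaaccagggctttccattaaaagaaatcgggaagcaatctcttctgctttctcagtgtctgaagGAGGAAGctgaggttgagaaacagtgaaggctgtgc
Pycard: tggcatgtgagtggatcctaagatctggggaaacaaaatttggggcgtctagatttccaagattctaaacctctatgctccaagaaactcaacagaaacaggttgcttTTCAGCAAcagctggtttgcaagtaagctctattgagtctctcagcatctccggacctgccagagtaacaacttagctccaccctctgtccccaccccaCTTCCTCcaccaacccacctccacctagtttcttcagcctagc
Casp4 held 3 matches to an NF-kB motif (GGG, any 3 bases, TTCC), at positions -93 to -84, -39 to -30 and -14 to -5 counted back from the start. Its other annotated start lies nearby, and the window before it holds the same 3 matches. No other member's windows held that motif, and it was present before the start of 5.31% of 27025 genes. The PU.1 motif (GAGGAAG), bound by a factor of myeloid cells, was present before the second annotated start of Nlrp3, at -130 to -124 and -36 to -30, in Pycard at -43 to -37 and in Aim2 at -113 to -107, against 12% of genes. The window before the first annotated start of Nlrp3 held none of the motifs searched. The C/EBP motif (TTGCNNAA) was present in Pycard at -142 to -135 and in Nlrc4 at -36 to -29, against 10.8% of genes. Aim2 also held a GC box (GGGCGG, 35.4% of genes) at -95 to -90. Naip5 held a match to the TATA box motif (TATAAA, 14.3% of genes) at -236 to -231, on the opposite strand (TTTATA). No member window held the AP-1 motif (TGANTCA, 7.82% of genes), the ISRE motif (GAAA, any 2 bases, GAAA; 3.46%) or the GAS motif (TTCNNNGAA, 8.13%). Both strands were searched and no match in these windows overlapped another. A match describes the letters and does not show binding.

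The 100 bases before the starts of Naip2 (chr13:100202123-100202222, minus strand) and Naip5 (chr13:100247337-100247436, minus strand) are set beside each other, with bases identical in an alignment of both in capitals.
Naip2: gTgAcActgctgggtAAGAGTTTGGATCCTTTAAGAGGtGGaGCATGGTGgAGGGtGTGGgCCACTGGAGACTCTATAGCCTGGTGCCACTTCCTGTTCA
Naip5: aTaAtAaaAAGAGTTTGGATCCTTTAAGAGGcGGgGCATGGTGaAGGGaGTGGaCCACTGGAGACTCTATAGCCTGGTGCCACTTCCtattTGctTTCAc
Of these 100 bases, 83 were identical between Naip2 and Naip5. For Naip6, the next gene of the cluster, 58 were identical with Naip2 and 54 with Naip5. The alignments allowed gaps. With gaps counted, identity was 77.6% for Naip2 with Naip5, 50% for Naip2 with Naip6 and 44.6% for Naip5 with Naip6. No chance level was computed, so the Naip6 values do not show a related start region. The annotations also place these starts differently. The Naip6 window, from chr13:100316617 on the minus strand, lies inside the GENCODE M21 gene, which ends at 100317674. The Naip5 window lies outside its GENCODE M21 gene, which ends at 100246323. The part of these placements in the identities was not tested. The transcripts share sequence with other genes: 36.9% of the 50-base stretches of Naip5, 21.5% of those of Naip6 and 19.1% of those of Naip2 also occur in another gene. For 100-base stretches the shares were 16.2%, 6.26% and 4.44%. How reads that match several genes were counted was not given in the sources used here. The division of reads among Naip2, Naip5 and Naip6 is therefore uncertain.

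Depth lay between 15707937 and 19706494 counts per sample. The samples were rich in lung transcripts, with 19170 to 24430 CPM (counts scaled to library size) summed over 7 markers of alveolar type 2 cells in ALI and 21380 to 28380 CPM in control. Of 16185 genes tested, 3062 (18.9%) were higher and 2860 (17.7%) lower in ALI at an adjusted p under 0.05, and the median log2 fold change over all of them was -0.06. Adipose tissue transcripts stood apart in control 5, at a summed 4513 CPM over 7 genes, and in ALI 2, at 217 CPM, against 0.528 to 8.12 CPM in the other 10 samples. Where leaving out both changed the call of a member or ratio, or moved a list's count by over 1.5 times, the value without them is given.

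The RNA of every inflammasome gene in the set was higher in ALI lungs than in control lungs. In the plot of CPM by sample, the 6 ALI samples lay above the 6 control samples for 10 of 10 members, a separation found for 13.1% of all tested genes. All 10 were called higher by edgeR's quasi-likelihood test after adjustment over all tested genes, where 36.6% of tested genes were called in either direction and 18.9% higher. Of the members, 9 were at least 2-fold higher, a call that 8% of tested genes met. Their log2 fold changes ran from 0.99 for Casp4 to 3.24 for Mefv with a median of 1.72. Without control 5 and ALI 2 the range was 1.06 to 3.41 with a median of 1.67, and 10 of 10 were called. In bulk tissue, a difference in the number of cells of a type and a difference in RNA per cell cannot be told apart.

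**Figure D1:**
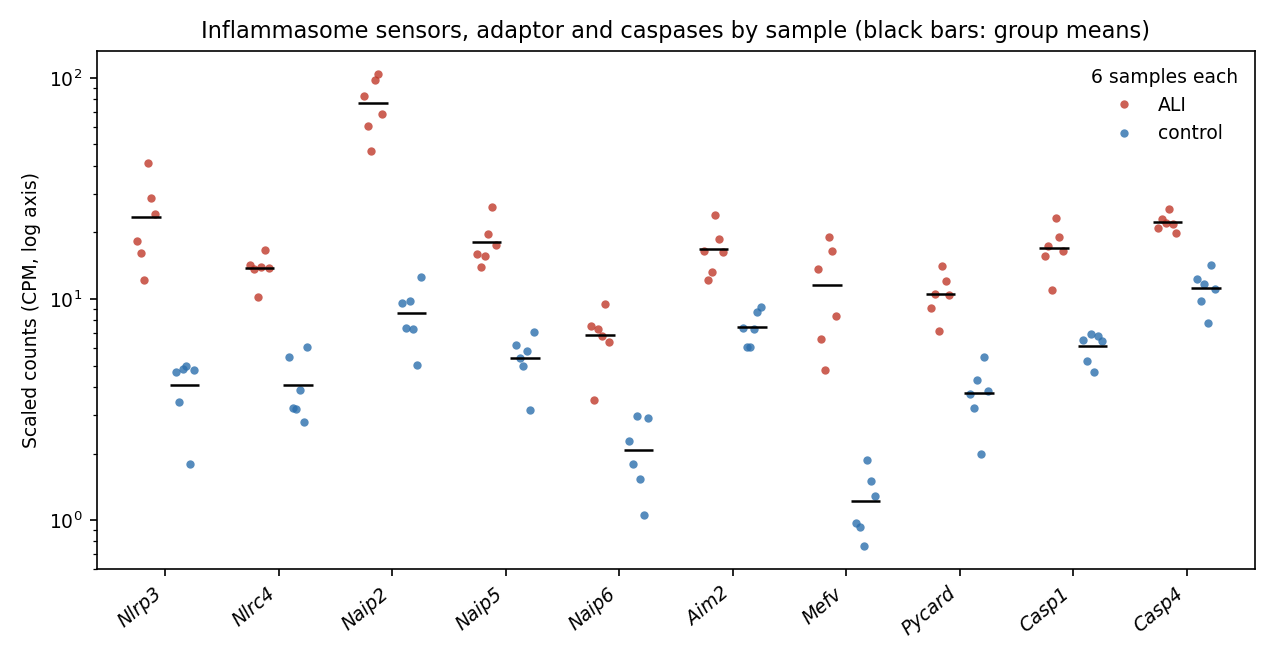
Scaled counts (CPM, log axis) of the 10 members in each sample, ALI left of control for each gene, with black bars at the group means. For each gene the 6 ALI points sit above the 6 control points; the fold is largest for Mefv and Naip2, at 9.43 and 8.84, and smallest for Casp4, at 1.99.

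Nlrp3, at chr11:59541568-59566956 on the plus strand of GRCm38, encodes the sensor that responds to potassium loss, crystals and other signs of cell damage. Its lowest, median and highest values were 12.2, 21.3 and 41.4 CPM in ALI, against 1.80, 4.72 and 4.99 CPM in control. The lowest ALI sample was thus above the highest control sample, and the ALI samples were spread widely, with a coefficient of variation of 44.9%. The mean was 23.5 ± 10.5 CPM in ALI and 4.08 ± 1.25 CPM in control (SD, n = 6 each), a log2 fold change of 2.52 ± 0.31 (SE; edgeR adjusted p = 2.435e-05).

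Mefv, at chr16:3707218-3718097 on the minus strand, encodes pyrin, a sensor that responds to the action of bacterial toxins. It had the largest fold of the 10 and the lowest mean CPM in control, a value not corrected for length. Values were 4.78, 11.1 and 19.2 CPM (lowest, median, highest) in ALI and 0.765, 1.13 and 1.88 CPM in control. The groups did not overlap, and the ALI samples varied with a coefficient of variation of 50.2%, the highest among the members. On average Mefv had 11.5 ± 5.79 CPM in ALI and 1.22 ± 0.417 CPM in control, a log2 fold change of 3.24 ± 0.36 (edgeR adjusted p = 8.765e-06).

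Aim2, at chr1:173350879-173466040 on the plus strand, encodes the sensor of double-stranded DNA in the cytosol. It had the smallest difference among the sensors. Values were 12.1, 16.4 and 24.1 CPM in ALI and 6.07, 7.34 and 9.20 CPM in control, in the order lowest, median and highest. The lowest ALI value was close to the highest control value, without overlap. Aim2 averaged 16.8 ± 4.28 CPM in ALI and 7.45 ± 1.30 CPM in control (log2 fold change 1.18 ± 0.17, edgeR adjusted p = 9.792e-05).

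The NAIP proteins bind bacterial products and then recruit NLRC4: NAIP2 binds the inner rod of type III secretion systems, and NAIP5 and NAIP6 bind flagellin. Naip2, at chr13:100144063-100202092 on the minus strand, had 46.5, 75.6 and 104 CPM (lowest, median, highest) in ALI and 5.02, 8.5 and 12.6 CPM in control. The groups were far apart, with ALI 3, the lowest ALI sample, well above control 6, the highest control. The log2 fold change was 3.14 ± 0.24 (mean 76.6 ± 22.2 CPM in ALI and 8.63 ± 2.63 CPM in control, edgeR adjusted p = 3.801e-07). Naip5, at chr13:100211739-100246323, had 14.0, 16.8 and 26.2 CPM in ALI and 3.15, 5.60 and 7.08 CPM in control (log2 fold change 1.74 ± 0.19, edgeR adjusted p = 7.754e-06). Naip6, at chr13:100281121-100317674, had 3.50, 7.06 and 9.53 CPM in ALI and 1.05, 2.03 and 2.95 CPM in control (log2 fold change 1.70 ± 0.27, edgeR adjusted p = 0.000208). The gap between the groups was narrowest of the 10 for Naip6, whose lowest ALI value, in ALI 2, was 1.19 times the highest control value. Counts summed over Naip1, Naip2, Naip5 and Naip6 averaged 103 ± 27.1 CPM in ALI and 16.5 ± 4.54 CPM in control. Their log2 fold change was 2.63 ± 0.22 (edgeR adjusted p = 6.001e-07). This sum does not depend on how counted reads were divided among these genes, but reads left uncounted would be missing from it. Nlrc4 itself, at chr17:74425438-74459142 on the minus strand, had 10.2, 13.8 and 16.7 CPM in ALI and 2.77, 3.55 and 6.08 CPM in control. Its ALI samples lay close together, with a coefficient of variation of 15.2%, and its log2 fold change was 1.74 ± 0.20 (edgeR adjusted p = 1.034e-05).

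The make-up of NAIP RNA differed between the groups. Per unit of transcript length, Naip2 was 77.4 ± 3.94% of the summed RPKM (CPM per kilobase) of Naip2, Naip5 and Naip6 in ALI and 56.7 ± 2.68% in control, with ranges of 70.2 to 80.8% and 53.1 to 59.4% that did not overlap. Naip5 was 17.5 ± 2.64% in ALI and 33.7 ± 3.97% in control, and Naip6 was 5.07 ± 1.57% in ALI and 9.59 ± 1.65% in control. The log2 ratio of Naip2 to Naip5 within a sample was higher by 1.40 in ALI (exact permutation, adjusted p = 0.007035 over 26 ratios), with no overlap. That of Naip6 to Naip5 differed by -0.05 ± 0.20 (SE; exact permutation, adjusted p = 0.8802). The part of shared reads in these shares was not tested.

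**Figure D2:**
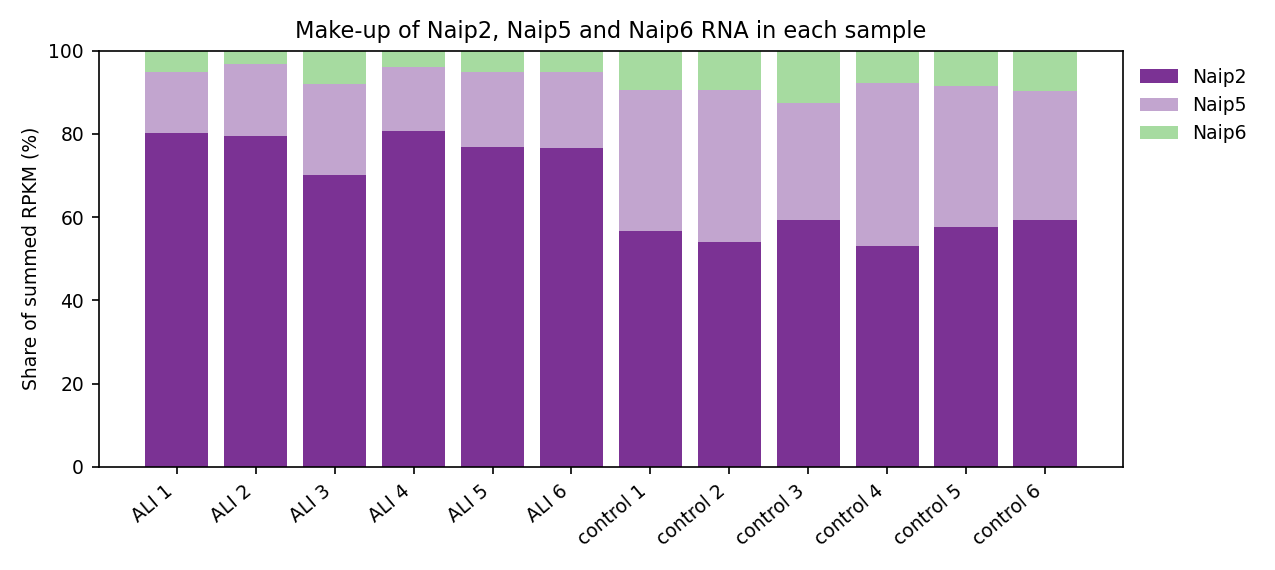
Share of Naip2, Naip5 and Naip6 in their summed RPKM (percent, vertical axis) in each of the 12 samples, ALI samples on the left. Naip2 makes up 70.2 to 80.8% in the ALI samples and 53.1 to 59.4% in the control samples.

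Pycard, at chr7:127989708-127993867 on the minus strand, encodes ASC, the adaptor that links sensors to caspase-1. It had 7.20, 10.5 and 14.1 CPM (lowest, median, highest) in ALI and 1.995, 3.79 and 5.47 CPM in control. The groups did not overlap, and control 5 was the highest control sample. Its mean was 10.6 ± 2.37 CPM in ALI and 3.76 ± 1.15 CPM in control, a log2 fold change of 1.49 ± 0.22 (edgeR adjusted p = 0.0001017). On the other strand, Gm45205 overlaps 12.8% of the exon bases of Pycard. Gm45205 had 1 count over the ALI group and 3 counts over the control group, against 1114 counts of Pycard in ALI and 376 in control.

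Casp1 and Casp4 lie beside each other on the plus strand of chromosome 9, at chr9:5298517-5307265 and chr9:5308828-5336783. Casp1, the caspase that cuts IL-1β, IL-18 and gasdermin D, had 10.99, 16.9 and 23.2 CPM in ALI and 4.70, 6.51 and 6.94 CPM in control. It averaged 17.1 ± 4.02 CPM in ALI and 6.12 ± 0.919 CPM in control (log2 fold change 1.48 ± 0.17, edgeR adjusted p = 9.259e-06). Casp4 had 19.8, 21.9 and 25.6 CPM in ALI and 7.81, 11.4 and 14.3 CPM in control. This gene had the smallest fold of the 10 and, in ALI, the smallest coefficient of variation, 9.02%. The log2 fold change of Casp4 was 0.99 ± 0.13 (mean 22.2 ± 2.002 CPM in ALI and 11.2 ± 2.23 CPM in control, edgeR adjusted p = 4.048e-05). Within samples, the log2 ratio of Casp4 to Casp1 was lower in ALI, at 0.40 ± 0.31, against 0.84 ± 0.13 in control (difference -0.44, exact permutation, adjusted p = 0.02412). Without control 5 and ALI 2 the difference was -0.40 with an adjusted p of 0.06516 by the exact permutation test, and the call was lost.

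In ALI, the extreme values of the members fell in few of the samples. The highest ALI value was in ALI 4 for 6 members (Nlrp3, Aim2, Mefv, Pycard, Casp1 and Casp4) and in ALI 5 for the other 4. The lowest was in ALI 3 for 6 members, in ALI 2 for Naip5, Naip6 and Aim2, and in ALI 6 for Casp4. Ptprc (CD45), found on leukocytes in general, was likewise highest in ALI 4, at 389 CPM, and lowest in ALI 3, at 245 CPM. Among controls, control 5 was lowest for 5 members (Nlrp3, Nlrc4, Naip2, Naip5 and Naip6) and highest for Pycard and Casp4. The highest control value was in control 6 for 4 members and in control 3, control 4 and control 5 for 2 each, and the lowest was in control 4 for 3 members and in control 3 for 2, so that no control sample was high or low throughout.

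Compared per length, the order of the members differed between the groups. In ALI the order of mean RPKM was Naip2 (15.8 ± 4.58), Casp1 (11.4 ± 2.68), Casp4 (5.98 ± 0.540), Nlrp3 (5.79 ± 2.60), Aim2 (4.81 ± 1.22), Mefv (3.55 ± 1.78), Naip5 (3.49 ± 0.840), Nlrc4 (2.91 ± 0.441), Pycard (2.78 ± 0.623) and Naip6 (1.003 ± 0.288). Naip2 was above Casp1, and Casp1 above Casp4, in 6 of 6 ALI samples, whereas Casp4 was above Nlrp3, and Mefv above Naip5, in 3 of 6. The neighbouring levels of Casp4, Nlrp3 and Aim2, and those of Mefv, Naip5, Nlrc4 and Pycard, lay within their spread of each other.

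In control the order began with Casp1 (4.09 ± 0.614 RPKM), Casp4 (3.01 ± 0.600), Aim2 (2.13 ± 0.372) and Naip2 (1.78 ± 0.542). Naip5 (1.04 ± 0.255), Nlrp3 (1.004 ± 0.309), Pycard (0.991 ± 0.304) and Nlrc4 (0.866 ± 0.287) followed within their spread of each other, and Mefv (0.376 ± 0.128) and Naip6 (0.305 ± 0.112) were lowest. Naip2 thus had rank 1 in ALI and rank 4 in control, and Mefv rank 6 in ALI and rank 9 in control. The order depends on the length used. The deposited length of Casp4 is that of all its annotated exons. With its longest coding transcript, a length tried after the deposited lengths were seen, Casp4 had 15.5 CPM per kilobase in ALI, second after Naip2, and 7.79 in control, above Casp1.

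**Figure D3:**
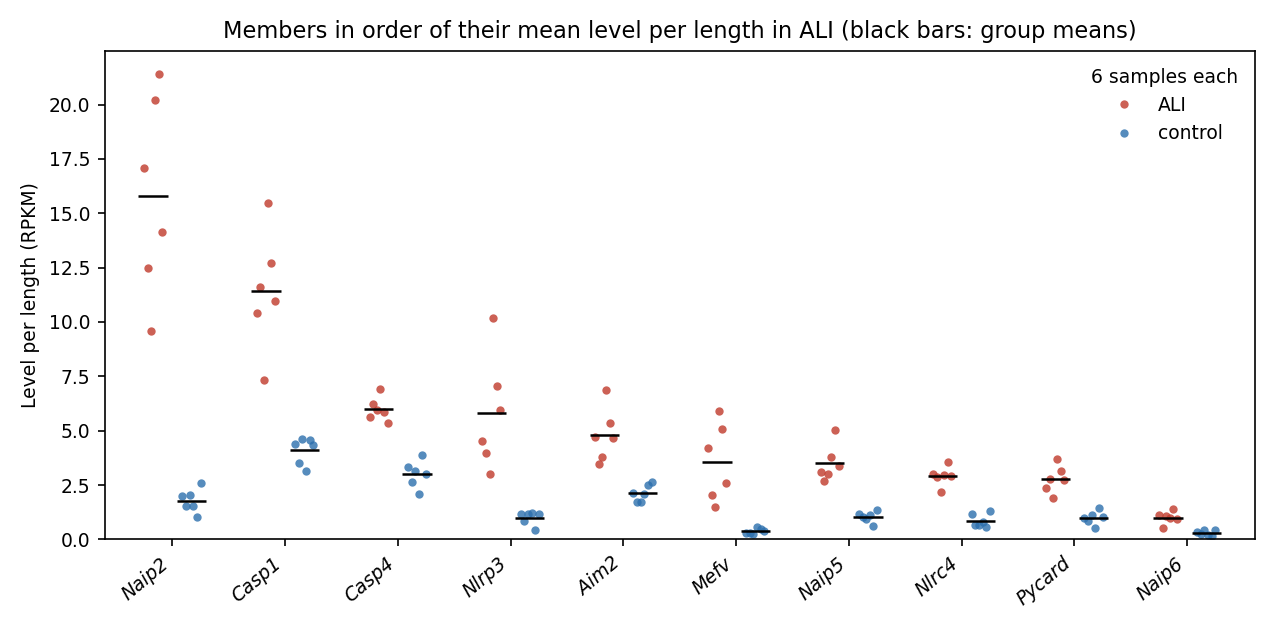
Level per length (RPKM, linear axis) of the members in each sample, ordered by their mean in ALI, with ALI left of control and black bars at the group means. Naip2 stands first in ALI, at 15.8 RPKM, against 1.78 RPKM in control, where Casp1 is highest at 4.09 RPKM.

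Markers of leukocytes differed between the groups as well. Ptprc had 245, 325 and 389 CPM (lowest, median, highest) in ALI and 134, 158 and 193 CPM in control, a log2 fold change of 1.02 ± 0.12 (edgeR adjusted p = 1.200e-05). Of 7 pan-leukocyte markers 6 were called higher and none lower, with sums of 1273 to 1702 CPM in ALI and 653 to 819 CPM in control. All 10 pan-myeloid markers were called higher, by log2 fold changes of 1.55 to 3.71, with sums of 10960 to 18420 CPM in ALI and 4373 to 4672 CPM in control. Among 14 neutrophil markers, Ly6g and Elane had too few counts to be tested. The other 12 were tested, and 11 were higher (sums over the list 278 to 648 CPM in ALI, 81.4 to 135 CPM in control). Interstitial macrophage markers had 7 of 10 higher and 1 lower (2141 to 3301 CPM in ALI, 592 to 799 CPM in control). Of 12 alveolar macrophage markers 9 were higher and 1 lower, with sums of 1275 to 1579 CPM in ALI and 500 to 6453 CPM in control. The highest control sum was that of control 5, and without control 5 and ALI 2 the sums were 1275 to 1558 CPM in ALI and 500 to 596 CPM in control. Monocyte markers had 3 of 10 higher and 2 lower (1181 to 1376 CPM in ALI, 1399 to 2234 CPM in control). That sum is mostly Ace, a gene that endothelium also expresses, at 937.5 ± 35.4 CPM in ALI and 1782 ± 315 CPM in control, and the other 9 summed to 249.7 to 408 CPM in ALI and 174 to 237 CPM in control. None of 10 T and NK cell markers was called by edgeR or by DESeq2, 1 (Cd3g) was called by limma-voom, 1 (Cd8a) had an unadjusted edgeR p under 0.05, and sums were 67.3 to 98.4 CPM in ALI and 72.6 to 98.4 CPM in control. Called lower were 5 of 6 B cell markers, 5 of 6 alveolar type 1 cell markers and 7 of 7 endothelial markers, the last with sums of 2203 to 3016 CPM in ALI and 3404 to 5350 CPM in control. None of the markers in these lists was at 0 throughout. The part of these cells in the members' differences was not tested.

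Ratios within a sample show whether a member differed by more than Ptprc did, and they do not depend on how libraries are scaled. Relative to Ptprc, 7 of 10 members were higher in ALI and none was lower (exact permutation of 6 against 6, two-sided, adjusted over 26 ratios, smallest possible p 0.002165). At an unadjusted p under 0.05, 8 of 10 members were higher by this exact test, against 5% of all other tested genes and 10 of 10 pan-myeloid markers. No overlap was seen for 5 members, against 3.15% of all tested genes and 9 of 10 pan-myeloid markers. The log2 ratio differed by 2.12 for Naip2, 1.996 for Mefv, 1.44 for Nlrp3, 0.75 for Nlrc4 and 0.72 for Naip5, each with no overlap between groups (exact permutation, adjusted p = 0.007035 for each). Casp1 differed by 0.43 (exact permutation, adjusted p = 0.01023). Naip6 differed by 0.67 (exact permutation, adjusted p = 0.04966), a call lost when any of 10 samples was left out. The remaining 3 members did not pass: Pycard differed by 0.47 ± 0.20 (SE; exact permutation, adjusted p = 0.05628), Aim2 by 0.13 ± 0.12 (adjusted p = 0.3883) and Casp4 by -0.01 ± 0.16 (adjusted p = 0.9286). Without control 5 and ALI 2, Pycard differed by 0.58 and Aim2 by 0.26, and both passed by exact permutation (adjusted p = 0.01587 for each). Relative to Ptprc, the Casp4 log2 ratio was -3.86 ± 0.24 in ALI and -3.84 ± 0.31 in control, and the groups overlapped.

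**Figure D4:**
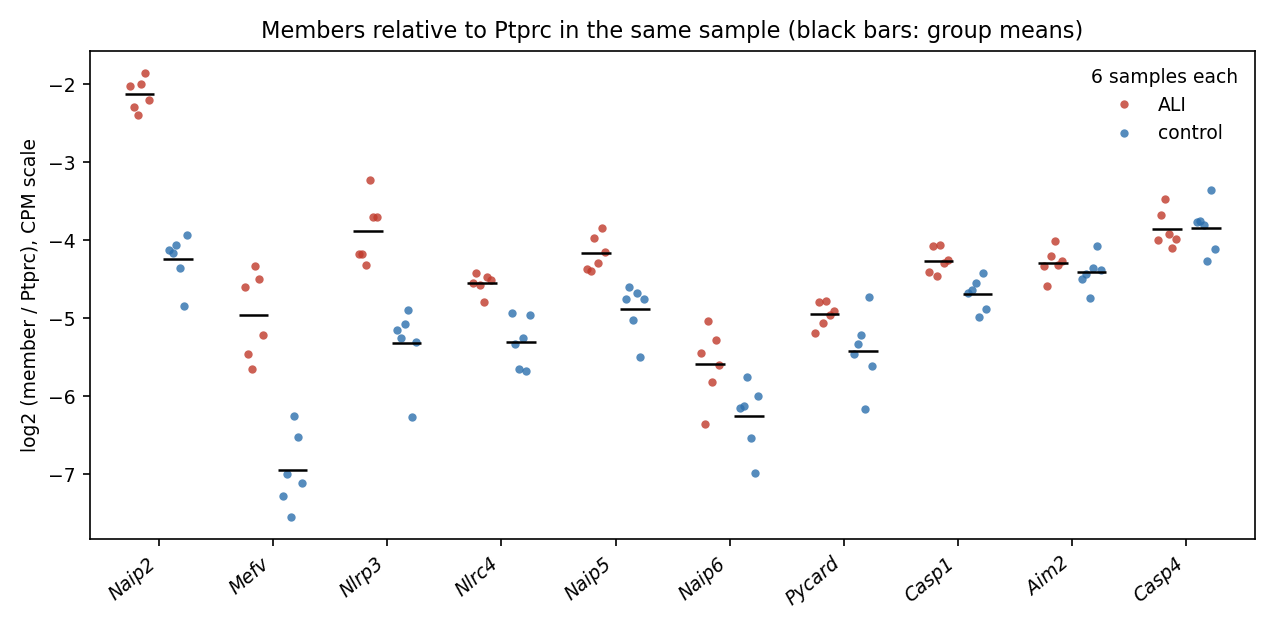
Log2 ratio of each member to Ptprc in the same sample (vertical axis), ordered by the difference between groups, with ALI left of control and black bars at the group means. Naip2, Mefv, Nlrp3, Nlrc4 and Naip5 separate the groups, while the Casp4 and Aim2 points of both groups overlap.

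Relative to the adaptor, 3 of 7 sensors were higher in ALI after adjustment and the other 4 did not pass. By the exact test at an unadjusted p under 0.05, 3 of the 9 other members were higher relative to Pycard and 1 lower. At that threshold 2.46% of all tested genes were higher, and of 10 pan-myeloid markers 6 were higher and none lower. The share of all tested genes that was lower was not computed. Pycard itself had a log2 fold change of 1.49. A gene without a difference between the groups would therefore be lower relative to Pycard. Groups without overlap, with ALI higher, were seen for 1 of these 9 members and for 5 of 10 pan-myeloid markers. For this separation too, the share of all tested genes was not computed. The log2 ratio to Pycard was higher in ALI by 1.65 for Naip2 (exact permutation, adjusted p = 0.007035), by 1.52 for Mefv (0.01876) and by 0.96 for Nlrp3 (0.03377), and lower for Casp4 (difference -0.49, adjusted p = 0.02412). The Nlrp3 call was lost without control 5 (0.64, exact permutation, adjusted p = 0.05959), without control 5 and ALI 2 (0.73, adjusted p = 0.05732) and in 8 other alternatives. For Nlrc4 (0.27 ± 0.31), Naip5 (0.24 ± 0.33), Naip6 (0.20 ± 0.38), Aim2 (-0.34 ± 0.22) and Casp1 (-0.05 ± 0.12) the difference (± SE) did not pass (exact permutation, adjusted p = 0.1985 to 0.6894). Casp1 and Pycard kept the tightest ratio in ALI, at a log2 ratio of 0.69 ± 0.06, against 0.73 ± 0.28 in control. Nlrp3 was higher relative to Casp1, by 1.01 (exact permutation, adjusted p = 0.01023).

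The substrates of these caspases differed from each other. Gsdmd, the pore-forming substrate, had 40.6, 46.4 and 67.8 CPM (lowest, median, highest) in ALI and 35.2, 43.0 and 50 CPM in control. These groups overlapped, and the log2 fold change of 0.23 ± 0.14 did not pass (edgeR adjusted p = 0.2319). Relative to Casp1, Gsdmd differed by -1.24 with every ALI sample below every control sample (exact permutation, adjusted p = 0.007035). Casp1 itself had a log2 fold change of 1.48, so a gene without a difference would also be lower relative to it. The share of all tested genes lower relative to Casp1 was not computed. Il1b, the precursor of IL-1β, had 31.6, 77.9 and 166 CPM in ALI and 5.95, 9.56 and 12.4 CPM in control (log2 fold change 3.17 ± 0.39, edgeR adjusted p = 4.340e-05). Its log2 ratio to Casp1 was higher by 1.56 (exact permutation, adjusted p = 0.01023). Il18, the precursor of IL-18, had 12.8, 13.9 and 16.1 CPM in ALI and 5.77, 7.63 and 8.25 CPM in control (log2 fold change 0.96 ± 0.12, edgeR adjusted p = 2.668e-05). Its ratio to Casp1 differed by -0.49 (exact permutation, adjusted p = 0.04221), a call lost when any of 9 samples was left out. Il1b thus differed by more than its protease, and Gsdmd by less.

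The other genes of the pathway are given by lists. Among gasdermins and the membrane rupture protein, 3 of 10 were tested and 1 was called higher: Gsdme, another pore-forming gasdermin (0.72, edgeR adjusted p = 0.01342, with overlap). It was high in both control 5 and ALI 2, and its log2 fold change without them was 0.80 (edgeR adjusted p = 0.0008568). Ninj1, which carries out membrane rupture, had 47.9 to 92.3 CPM in ALI, against 24.5 to 27.3 CPM in 5 controls and 105.5 CPM in control 5. Its log2 fold change was 0.83 ± 0.38 (edgeR adjusted p = 0.1101), and 1.40 (edgeR adjusted p = 1.132e-06) without control 5 and ALI 2, which made 2 of 3 called. The median over that list was 0.72, and Gsdma, Gsdma2, Gsdmc and Gsdmc2 had no counts. Of 6 caspase-1 cytokine substrates and related ligands, 6 were called higher (median 1.40), among them Il1rn, the IL-1 receptor antagonist, by 3.11. Of 9 tested other NLR proteins 7 were higher and 1 lower (median 1.07). Nlrp1b, a sensor of bacterial proteases, was higher by 1.65, Nod2, a peptidoglycan receptor, by 1.58, and Nlrx1, a mitochondrial NLR, by 0.70. Nod1, the related peptidoglycan receptor, was lower (-0.26, edgeR adjusted p = 0.03109), a call lost in 11 of 21 alternatives. The median over all tested genes, for comparison, was -0.06.

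Of 12 tested AIM2-like receptors and DNA-sensing genes, 7 were higher and 1 lower (median 1.19). Tmem173 (STING) was higher by 1.31, Mb21d1 (cGAS, which makes the messenger that activates STING) by 1.37 and Ifi205 by 1.98. Ifi208, a relative of Ifi205 in the same family, differed by -1.25 with every ALI sample below every control sample (edgeR adjusted p = 0.0002373). Of 13 genes tied to NLRP3 activation and ion flux, 8 were higher and 1 lower (median 0.47). Cybb, the catalytic subunit of the phagocyte NADPH oxidase and also in the pan-myeloid marker list, was higher by 3.71, Trpm2, a calcium channel, by 2.28 and Ctsb, the protease cathepsin B, by 1.64. Txnip, which binds thioredoxin, was lower (-0.39, edgeR adjusted p = 0.008941). Of 11 tested inflammasome brakes, 5 were higher and 1 lower (median 0.22). Tnfaip3 (A20), which restrains NF-kB, was higher by 1.23, Trim30a by 0.68 and Serpinb9 by 0.48, and Card6 was lower (-0.37, edgeR adjusted p = 0.03683), a call lost in 11 of 21 alternatives.

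**Figure D5:**
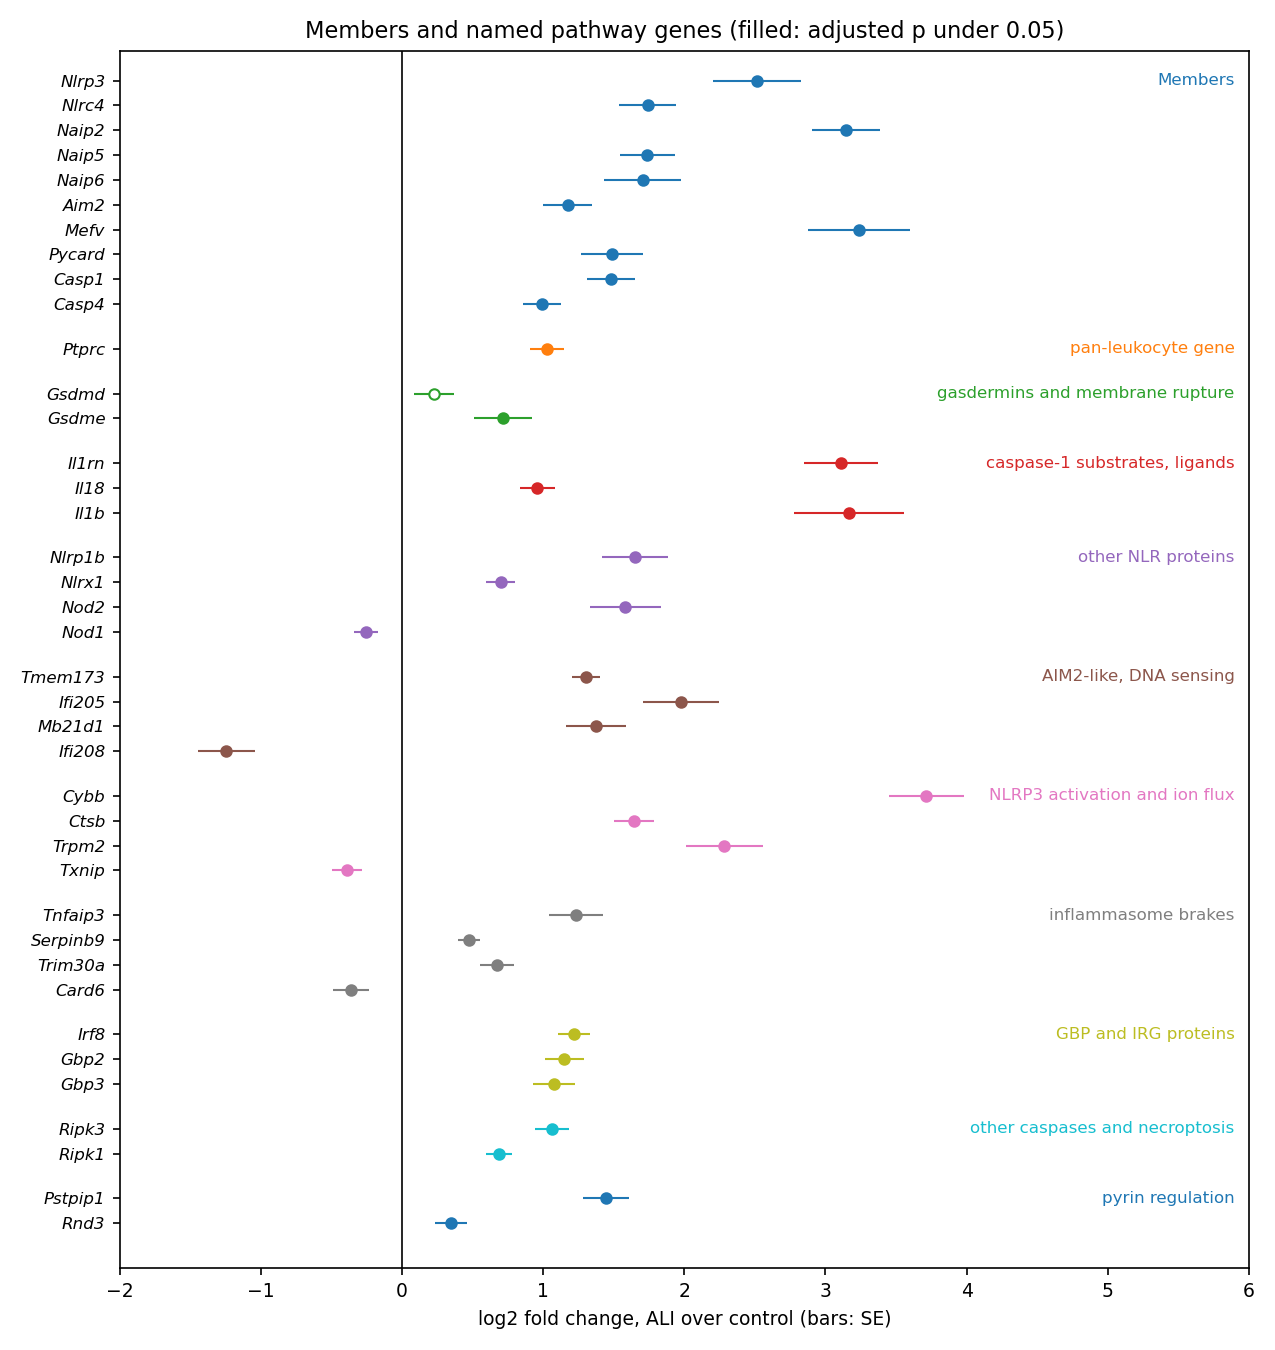
Log2 fold changes (horizontal axis, ALI over control, bars SE) of the members, Ptprc and most pathway genes named in the text. Ninj1 is not plotted. Filled points were called at an adjusted p under 0.05. Members span 0.99 to 3.24, Gsdmd is the open point at 0.23, and Ifi208, Txnip, Card6 and Nod1 lie below 0.

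Of 11 GBP and IRG proteins and their regulators, which help caspase-11 and AIM2 reach bacterial products, 9 were called higher and none lower (median 1.08). Irf8, a transcription factor of myeloid cells, was higher by 1.22, Gbp2 by 1.15 and Gbp3 by 1.08. Of 9 tested other caspases and necroptosis genes, 7 were higher and none lower (median 0.69), with Ripk3, the kinase of necroptosis, higher by 1.06 and Ripk1 by 0.69. Of 9 genes of pyrin regulation, 2 were called higher and none lower (median -0.00067). Those were Pstpip1, which binds pyrin, by 1.45, and Rnd3 by 0.35 (edgeR adjusted p = 0.02732), a call lost when any of 5 samples was left out. Mefv therefore had a log2 fold change of 3.24 in a list whose other measured genes mostly did not pass.

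Likeness of pattern was measured as the root mean square difference of log2 CPM, centred on each gene's mean over the 12 samples, against 15573 genes. The genes most like Nlrp3 were Gpr141, an orphan receptor (0.254), Itgb2, the β2 integrin subunit of leukocytes (0.264), and Itgax, the CD11c integrin subunit of alveolar macrophages and dendritic cells (0.274). Those most like Casp1 were Cd48 (0.136) and Cd53 (0.143), both surface proteins of leukocytes, and Hmox1, haem oxygenase of macrophages and stressed cells (0.15). All 6 of these genes were called higher in ALI, so the measure includes the difference between the groups.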

How the data were processed

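RNA of 12 mouse lung samples was extracted with TRIzol and sequenced after NEBNext Ultra library preparation on a NovaSeq instrument, per the labels' protocols. The deposited table holds unnormalized read counts for each gene, which the authors gave beside gene lengths. Tools in the submitters' processing notes are fastp, HISAT2 and featureCounts, and the build is GRCm38 (mm10). Whether strand was used was not given in the sources used here.

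Columns were matched to samples by title and grouped by the treatment label. No column of another sample was present. Deposited start positions equalled those of GRCm38 for 2.91% of 51094 genes, so coordinates are those of GENCODE M21 on GRCm38, by gene ID. No sample repeated another: over 30 pairs within groups, the chi-square of the counts was 6.91 to 239 times its degrees of freedom.

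Genes were kept by filterByExpr (minimum count 10), scaled by TMM and tested in R 4.3.3 by the robust quasi-likelihood test of edgeR 4.0.16 with Benjamini-Hochberg adjustment over 16185 genes. CPM uses TMM-scaled library sizes, and RPKM also the deposited length. Ratios are differences of log2 CPM (prior count 2), tested by exact permutation in Python 3.11.15. The pipeline was tested on simulated data. DESeq2 1.42.0, limma 3.58.1 (voom), other scalings and filters, a replicate block and leaving out samples were alternatives. Reads carry no molecular identifiers.

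Named genes are the members, Gsdmd, Il1b, Il18, Ptprc, up to 3 called genes with the smallest p from each pathway list and each called gene moving against its list, and for likeness the 3 nearest genes to Nlrp3 and to Casp1. Gsdma, Gsdma2, Gsdmc, Gsdmc2, Ninj1, Cd3g, Cd8a, Ace, Ly6g and Elane were named after their values were seen. A gene that the rule takes is not reported here. The members and lists were chosen with earlier results of these data known.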

Additional observations from a re-analysis of the deposited data

Results flagged for a closer look

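None of the 10 members had a sample that stood far from the rest of its group. Among 80 gene and group combinations, 7 did, where chance gives about 1 in 20. Gsdme was high in ALI 2, at 8.75 CPM against 5.69 to 6.47 CPM in the other ALI samples, and in control 5, at 6.52 CPM against 2.62 to 4.05 CPM in the other controls. Ctsb was high in control 5, at 706 CPM against 421 to 497 CPM. Control 5 and ALI 2 are the samples with adipose tissue transcripts, whose part in these values was not tested. Nlrx1 was high in control 4, at 20.9 CPM against 15.4 to 17.2 CPM, Ifi205 in control 1, at 2.38 CPM against 0.669 to 1.30 CPM, and Trpm2 in control 6, at 8.25 CPM against 3.06 to 4.28 CPM. Txnip was low in ALI 1, at 535 CPM against 707 to 806 CPM in the other ALI samples.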

How the results depend on the processing

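The count of members called higher was 10 in each of 21 alternatives, and 9 to 10 were at least 2-fold higher. The count over all genes was 5169 to 7223 when 1 sample was left out and 4822 to 7788 otherwise, lowest with the replicate number as a block and highest with limma-voom. The numbers showed no sign of pairing: correlations of same-numbered samples ran from -0.268 to 0.266, and 1 of 6 samples correlated best with its own number. Other differences among samples, such as the adipose tissue transcripts, enter these correlations, so they cannot exclude pairing or a shared batch. With the replicate number as a block, 10 members were called by edgeR. Nod1 (adjusted p = 0.07524) and Card6 (0.1088) no longer passed with it. Of 26 ratios, 14 to 17 passed with 1 sample left out and 17 to 18 otherwise. Ratios that changed sign were not called with all samples. Casp4 over Ptprc was 0.118 with the pan-leukocyte mean and 0.0453 without control 5 and ALI 2, and Naip6 over Naip5 was 0.0383 without both. With single samples left out, Casp4 over Ptprc ran from -0.0976 to 0.0829, Naip6 over Naip5 from -0.143 to 0.0818, Naip5 over Pycard from -0.018 to 0.435, Naip6 over Pycard from -0.0873 to 0.381 and Casp1 over Pycard from -0.129 to 0.0462. The cause was not tested. With the longest coding transcript as length, 14 of 20 ranks of member levels held, and with GENCODE M21 lengths 20. Depth limits Naip6 and Mefv in control, at means of 2.08 and 1.22 CPM.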
